A study of Mus musculus with 281 samples.

Results

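The genes described here are the 10 genes of the epithelial sodium channel and the mineralocorticoid pathway, taken by name from the deposited table of 47752 genes. Scnn1a, Scnn1b and Scnn1g encode the α, β and γ subunits of the channel (ENaC). Prss8 encodes prostasin, a membrane-anchored serine protease that acts on the channel. Nedd4l encodes a ubiquitin ligase that removes it from the membrane. Sgk1 encodes a kinase that inhibits Nedd4l. Nr3c2 and Nr3c1 encode the mineralocorticoid and the glucocorticoid receptor, Hsd11b2 encodes the enzyme that inactivates glucocorticoids and thereby protects the mineralocorticoid receptor from them, and Tsc22d3 encodes GILZ, a protein induced by corticosteroids. All 10 names were found in the table, and they were chosen by name, not by their values.

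ENaC lets Na+ enter epithelial cells across the apical membrane and is assembled from its 3 kinds of subunit. Aldosterone, acting through the mineralocorticoid receptor, raises its activity in kidney, colon and lung, in part by inducing Sgk1, and proteases release inhibitory tracts from the α and γ subunits. In the inner ear the endolymph is poor in Na+, and epithelial cells that face it absorb Na+ through this and other channels.

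Single cells of the cochlear stria vascularis, drawn up with a glass micropipette after collagenase treatment and profiled with Smart-Seq2, came from male 129S6 mice of 3 genotypes. There were 40 cells from Slc26a4+/- mice of 26 to 33 days (HET), 69 cells from Slc26a4-/- mice of 24 to 44 days (KO) and, making up the rest, the cells from Slc26a4+/+ mice of 22 to 42 days (WT). Slc26a4 encodes pendrin, the anion exchanger of spindle and root cells, and the Slc26a4-/- mouse is a model of a hereditary hearing loss. The labels name no mouse, so each genotype counted as 1 sample, no test between genotypes was made, and the spread given below is that between cells and between the 4 sequencing batches.

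A cell had a median of 1312950 estimated counts and at most 7932729, and 20 WT cells lay under 100000. Batch 1 held 52 WT cells and 1 KO cell, batch 3 held 75 WT cells only, and the HET cells were all in batch 4. Cells were clustered without the 10 genes and without the pathway genes named below, and clusters were named from marker genes. The named clusters held 84 intermediate-like cells (IMC-like), 33 spindle-like cells (SC-like), 37 root-like cells (RC-like) and 21 marginal-like cells (MC-like), of which 38, 23, 17 and 14 were WT. Mean WT levels of the defining genes, in CPM (counts scaled to a common total per cell), were 3364 CPM of Kcnj10 in IMC-like, 5714 CPM of Anxa1 in SC-like, 8023 CPM of Epyc in RC-like and 2372 CPM of Kcnq1 in MC-like cells. A cluster of 17 cells, 11 of them WT, led by Vmo1, Crhbp and Slc26a7 was given no cell type and is called the Vmo1/Crhbp cells. Of these, 8 scored highest for spindle cell markers. With 4 principal components, or at a clustering resolution of 0.4, no such cluster formed. The SC-like cluster then held 34 WT cells under either setting. A further 89 cells, 69 of them WT, led by Galntl6 and Gdap1, were left unnamed as mixed, and orders of levels given below are over the other 5 clusters: 57 of them scored highest for intermediate cell markers, and their erythroid marker sum reached 283191 CPM in WT cells. The pendrin RNA did not separate the labels, since Slc26a4 averaged 989 CPM in 17 WT and 1188 CPM in 14 KO RC-like cells, against 912 CPM in 23 WT and 102.5 CPM in 8 KO SC-like cells. Whether the deleted part of the gene contributes to these counts cannot be read from the gene table, so KO below means the cells labelled Slc26a4-/-.

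On GRCm38, Scnn1g lies at chr7:121734479-121768475 and Scnn1b at chr7:121865038-121918514, both on the plus strand and next to each other, and Prss8 lies on the same chromosome at chr7:127925716-127930104 on the minus strand. Scnn1a lies at chr6:125320659-125344943, Sgk1 at chr10:21882184-21999903, Nr3c2 at chr8:76899442-77245012 and Hsd11b2 at chr8:105518755-105523988, all on the plus strand. Tsc22d3 lies at chrX:140539528-140600659 on the minus strand. RefSeq promoter windows on GRCm38.p6 were matched to 5 of the 10 genes, with 12 windows among them. Shown here are the 250 bases before the start of the ENaC subunit genes that are neighbours, and those before 2 starts of Sgk1, an upstream one at chr10:21993890 and a downstream one at chr10:21994666, whose transcripts were used to different extents in these cells. Capitals mark the hexamer AGAACA or its reverse complement TGTTCT, the letters bound by corticosteroid receptors.
Scnn1g, chr7:121734229-121734478, plus strand: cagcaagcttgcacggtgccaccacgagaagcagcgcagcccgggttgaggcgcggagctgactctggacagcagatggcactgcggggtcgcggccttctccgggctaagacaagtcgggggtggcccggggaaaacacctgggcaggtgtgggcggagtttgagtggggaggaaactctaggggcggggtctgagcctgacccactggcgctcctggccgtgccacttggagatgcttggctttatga
Scnn1b, chr7:121864788-121865037, plus strand: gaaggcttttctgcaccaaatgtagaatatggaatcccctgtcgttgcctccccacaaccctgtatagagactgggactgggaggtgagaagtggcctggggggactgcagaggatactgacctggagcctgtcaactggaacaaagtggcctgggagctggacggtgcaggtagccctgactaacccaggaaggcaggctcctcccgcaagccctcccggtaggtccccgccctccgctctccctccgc
Sgk1, upstream start, chr10:21993640-21993889, plus strand: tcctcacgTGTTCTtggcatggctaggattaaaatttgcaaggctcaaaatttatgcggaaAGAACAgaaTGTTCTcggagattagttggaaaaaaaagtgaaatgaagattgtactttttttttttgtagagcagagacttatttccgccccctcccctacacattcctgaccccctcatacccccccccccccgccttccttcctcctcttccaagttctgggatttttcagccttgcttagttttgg
Sgk1, downstream start, chr10:21994416-21994665, plus strand: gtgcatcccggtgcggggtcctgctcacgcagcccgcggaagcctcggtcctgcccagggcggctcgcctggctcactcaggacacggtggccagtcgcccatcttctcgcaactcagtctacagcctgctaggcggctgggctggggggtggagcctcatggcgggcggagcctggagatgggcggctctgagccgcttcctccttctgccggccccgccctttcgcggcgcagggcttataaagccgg
The window before the upstream start of Sgk1 held the hexamer 3 times, and 2 of these formed the palindromic receptor element, AGAACA and TGTTCT with any 3 bases between them, at chr10:21993701-21993715. Over all genes, searched on both strands, 5284 of 32851 windows (16.1%) held the hexamer and 3 (0.0091%) held the palindrome, those of Acnat2, Gm35041 and Sgk1. The windows of Scnn1g, Scnn1b and the downstream start of Sgk1 held neither, and these were richer in G and C, at 65.2%, 60.8% and 70.4% against 44.8% before the upstream start. A match is a description of the letters only.

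ENaC subunit RNA was found in SC-like and Vmo1/Crhbp cells and was near 0 in IMC-like cells. In WT cells Scnn1a averaged 87.2 CPM in SC-like cells, with a lowest value of 0, a median of 1.66 and a highest of 591 CPM over 23 cells. Scnn1b averaged 122.01 CPM in the same cells, with a median of 0.747 and a highest value of 582 CPM. Most SC-like cells were therefore at or near 0 for a given subunit, and the mean came from the rest. In IMC-like cells all 3 subunits averaged under 0.1 CPM over 38 cells, and no cell had 10 or more estimated counts of any of them, which by the limit of 3 cells that a count of 0 allows leaves a share of up to 7.89% of cells with such a count. A cell with 10 or more estimated counts of a gene is said below to hold it. Intervals on shares above 0 are exact Clopper-Pearson intervals at 95% and cover counting error only.

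Of the 23 WT SC-like cells, 17 (73.9%, interval 51.6 to 89.8%) held at least 1 subunit, and they came from 10 collection sessions. It was 3 of 17 among RC-like, 3 of 14 among MC-like and 1 of 69 among mixed cells. All 11 WT Vmo1/Crhbp cells, from 10 sessions, held at least 1 subunit. Scnn1a ranged in them from 0 to 943 CPM with a median of 182.7, and Scnn1b from 0 to 1711 CPM with a median of 321.9. Scnn1g ranged from 0 to 570 CPM with a median of 4.64. The 4 HET and 2 KO cells of this cluster all held a subunit too, and Scnn1b was 620 and 1663 CPM in the KO cells. The cluster was formed without the subunit genes.

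The γ subunit was the scarcest in Vmo1/Crhbp, SC-like and MC-like cells. On the TPM scale, which allows for transcript length, the mean levels in WT Vmo1/Crhbp cells were 167.8 TPM for Scnn1a, 338 TPM for Scnn1b and 66.1 TPM for Scnn1g. In WT SC-like cells they were 57.9, 64.04 and 5.12 TPM. Scnn1g was held by 2 of 23 SC-like, 2 of 17 RC-like and 5 of 11 Vmo1/Crhbp cells. In RC-like cells the order differed, with a mean of 28.9 CPM of Scnn1g, 12.2 CPM of Scnn1a, held by 1 cell, and 1.11 CPM of Scnn1b, held by none. MC-like cells, which line the endolymph, averaged 13.2 CPM for both Scnn1a and Scnn1b, and Scnn1g had no count in any of the 14 cells.

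**Figure D1:**
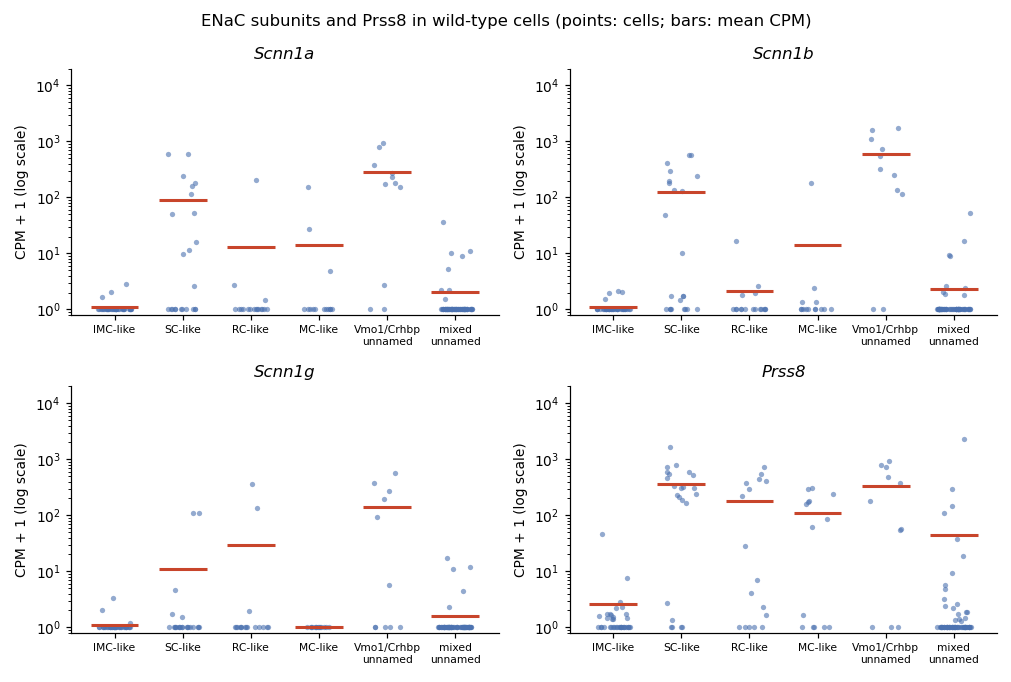
Level of Scnn1a, Scnn1b, Scnn1g and Prss8 in each WT cell by cluster, as CPM + 1 on a log axis. Each point is a cell and each bar the mean. For the 3 subunits, SC-like and Vmo1/Crhbp cells spread from 0 CPM upward and the 38 IMC-like cells stay near 0 CPM, and Prss8 is found in all 4 epithelial clusters.

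The order of levels among the named cell types was SC-like, MC-like, RC-like and IMC-like for Scnn1a and Scnn1b. Scnn1a in SC-like over MC-like cells had a log2 ratio of 2.64, but the ratio within batches ranged from −2.92 to 7.63 with an SD of 5.28, so these neighbours did not differ beyond the spread between batches. For Scnn1b the ratio was 3.12 and was above 0 in all 3 batches with both cell types, between 2.03 and 8.04 (SD 3.33). With the Vmo1/Crhbp cells included, they came first for all 3 subunits. Their level was above that of the next cell type in 3 of 3 batches for each subunit, with a log2 ratio of 2.26 for Scnn1b over SC-like cells and of 2.21 for Scnn1g over RC-like cells. Only the last exceeded its SD between batches, which was 1.87. Scnn1g was higher in RC-like than in SC-like cells by 1.47 on the log2 scale, and 5 of the alternatives tried turned that order round.

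Cells rarely held the 3 subunits together. Of the 35 WT cells with a subunit, 22 held 1, 9 held 2 and 4 held all 3. The 4 cells were 3 Vmo1/Crhbp cells and 1 SC-like cell. Among SC-like cells, 6 held Scnn1a alone, 6 held Scnn1b alone, 3 held these 2, 1 held Scnn1b with Scnn1g and 1 held all 3. No WT cell held Scnn1a with Scnn1g and without Scnn1b. All 3 subunits were held by 3 of 40 HET and by 3 of 69 KO cells, and in both genotypes these were 2 Vmo1/Crhbp cells and 1 SC-like cell. When a single estimated count was enough, 10 WT cells had all 3. Amplified single-cell cDNA leaves out RNA at random, and its part in the missing subunits was not tested.

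**Figure D2:**
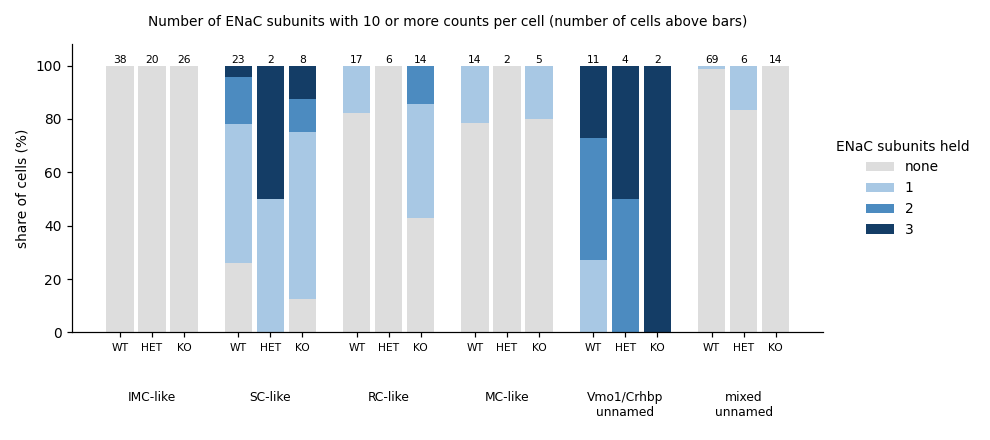
Share of cells, in percent, that held none, 1, 2 or 3 ENaC subunit genes (10 or more estimated counts each), by cluster and genotype, with the number of cells above each bar. No IMC-like cell held a subunit, 17 of 23 WT SC-like cells held at least 1, 3 of the 11 WT Vmo1/Crhbp cells held all 3, and 8 of 14 KO against 3 of 17 WT RC-like cells held at least 1.

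Pendrin and ENaC RNA were compared cell by cell. Of 17 WT SC-like cells that held Slc26a4, 13 held a subunit, and of the 6 that did not, 4 held one. In RC-like cells the counts were 1 of 9 and 2 of 8, and all 11 Vmo1/Crhbp cells held a subunit, 8 of them with Slc26a4. Over all WT cells 22 of the 34 that held Slc26a4 held a subunit. The SC-like cells with a subunit had a median of 420 CPM of Slc26a4, and the 6 without one had 1856 CPM.

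The protease gene Prss8 was found across the epithelial cell types. It averaged 357 CPM in WT SC-like cells (median 300.8, range 0 to 1688). RC-like cells averaged 180.4, Vmo1/Crhbp cells 328.7 and MC-like cells 107.03 CPM. IMC-like cells averaged 1.61 CPM, and 1 of 38 held it. SC-like exceeded RC-like cells in 4 of 4 batches, by 0.98 on the log2 scale (SD between batches 1.01). Over the WT cells of at least 100000 counts, the genes whose CPM was most like that of Prss8 were Epcam (Spearman rho 0.60), Cldn9 (0.56), Krt18 (0.56), Spint1 (0.55) and St14 (0.54). Epcam encodes an epithelial adhesion protein, Cldn9 a tight junction protein, St14 the protease matriptase and Spint1 an inhibitor of it. These correlations run across cells of several types and depths and carry no test.

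Of 9 other genes of ENaC cleavage, 7 averaged 10 CPM or more in some cluster other than the mixed cells. St14 was highest in SC-like cells, with 730 CPM. MC-like cells had 505 CPM of it and IMC-like cells 0.755 CPM. Tmprss3, a serine protease gene of inherited deafness, averaged 410 CPM in SC-like and 382 CPM in RC-like cells, and 0.495 and 0.424 CPM in MC-like and Vmo1/Crhbp cells. Spint1 averaged between 366 and 606 CPM in the 4 epithelial clusters and 3.40 CPM in IMC-like cells. Spint2, a related inhibitor, averaged 1097 CPM in Vmo1/Crhbp and 321 CPM in IMC-like cells. Tmprss2 reached 56.9 CPM in MC-like cells. Furin and Serpine2 did not separate epithelial from IMC-like cells. Furin averaged 129.5 CPM in RC-like, 40.02 CPM in IMC-like and 13.1 CPM in MC-like cells. Serpine2 averaged 99.1 CPM in RC-like, 44.3 CPM in IMC-like and 0.749 CPM in SC-like cells. Plau averaged 30.7 CPM in the mixed cells, where 2 of 69 held it, and under 10 CPM elsewhere, and Tmprss4 had no count in these WT cells.

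Sgk1 was highest in RC-like cells. Over 17 WT cells it ranged from 0 to 2436 CPM with a median of 453 and a mean of 628 CPM. MC-like cells averaged 422 CPM with a median of 48.2, Vmo1/Crhbp cells 361 CPM with a median of 276.3, and SC-like cells 268.8 CPM with a median of 55.2. IMC-like cells averaged 53.4 CPM with a median of 0, and 8 of 38 held the gene. RC-like and MC-like cells did not differ beyond the spread between batches (log2 ratio 0.57, SD 1.72). The genes most like Sgk1 across WT cells were Spint2 (rho 0.55), Marcksl1 (0.54), Gyltl1b (0.52), Spint1 (0.51) and Cldn7 (0.51).

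Nedd4l, at chr18:64887705-65217828 on the plus strand, was also highest in RC-like cells, at 298.5 CPM with a median of 142.6 and a range from 0 to 1473 CPM, and 14 of 17 cells held it. SC-like cells averaged 153.7 CPM, Vmo1/Crhbp cells 70.2, MC-like cells 42.1 and IMC-like cells 30.8 CPM. RC-like exceeded SC-like cells in 3 of 4 batches, by 0.95 on the log2 scale (SD 1.23). The related ligase gene Nedd4 averaged between 288.2 CPM in MC-like and 821 CPM in RC-like cells. Sgk3, a kinase related to Sgk1, averaged 1025 CPM in Vmo1/Crhbp, 552 in SC-like, 467 in IMC-like and 29.5 CPM in MC-like cells. Usp2, which encodes a deubiquitinase, averaged 514 CPM in Vmo1/Crhbp, 345 CPM in MC-like and 38.7 CPM in RC-like cells, and Sgk2 stayed under 10 CPM.

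The deposited transcript counts tell the starts of Sgk1 apart. The palindrome precedes both starts: it begins 965 bases before the downstream one, outside the 250-base window printed for that start. The transcript of the downstream start, whose window has no receptor element, made up 86.5% of the mean Sgk1 CPM in the RC-like, 83.98% in the SC-like, 86.3% in the Vmo1/Crhbp and 99.03% in the MC-like WT cells. In IMC-like cells it made up 62.998%. The transcript of the upstream start, whose window holds the palindrome, made up 33.8% there. This upstream transcript was the larger part in 4 of the 8 IMC-like cells that held Sgk1. SC-like cells had an upstream share of 12.7%, RC-like cells of 3.66% and MC-like cells of 0%. A single annotated transcript made up 99.6% of Scnn1b in SC-like and 87.3% in Vmo1/Crhbp cells, and a single one of Scnn1a made up 69.3% and 79.4%. Nedd4l came mostly from the more upstream of its 2 quantified starts in SC-like cells (96.7%) and RC-like cells (73.3%). Shares of transcripts that overlap are estimates by the aligner, and they come with no replicate error here.

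**Figure D3:**
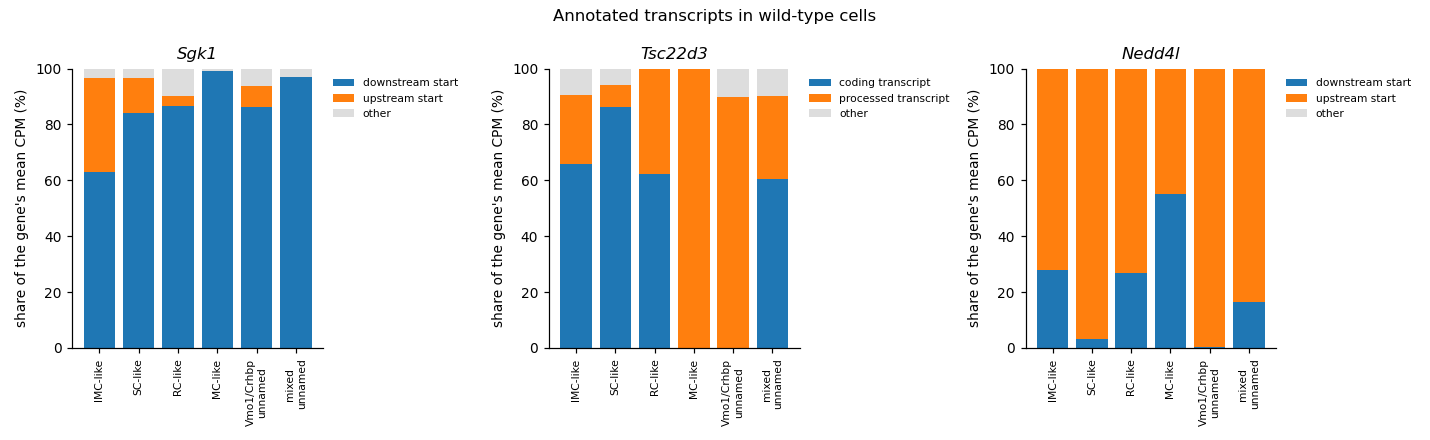
Share of the mean CPM of Sgk1, Tsc22d3 and Nedd4l taken by their main annotated transcripts in WT cells, in percent, by cluster. The transcripts are told apart by start for Sgk1 and Nedd4l and by annotated type for Tsc22d3. The share of the upstream start of Sgk1 is 33.8% in IMC-like and 12.7% or less in the other clusters. Tsc22d3 in MC-like and Vmo1/Crhbp cells rests on 1 cell each.

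Both receptors were present, in different proportions. On the TPM scale IMC-like cells averaged 95.9 TPM of Nr3c1 and 34.5 TPM of Nr3c2, and SC-like cells 70.7 and 20.9 TPM. By their means RC-like cells had the other order, with 59.1 TPM of Nr3c1 and 130.6 TPM of Nr3c2. So did MC-like cells, with 12.4 and 81.9 TPM, and Vmo1/Crhbp cells, with 25.3 and 87.4 TPM. Part of the Nr3c2 CPM was assigned to a transcript annotated for nonsense-mediated decay. Its share was 59.7% for MC-like, 57.1% for Vmo1/Crhbp and 25.2% for RC-like cells, against 64.8% for IMC-like and 55.6% for SC-like cells. A short transcript of 612 bases held 14.9%, 17.6% and 13.7%, against 6.7% and 7.4%, in the same sequence of clusters. The part of these transcripts in the order of the receptors was not tested. The Nr3c2 mean in RC-like cells rests on few cells: it averaged 163.4 CPM with a median of 0 and a highest value of 1639 CPM, and its batch means ran from 0 to 461 CPM. More RC-like cells held Nr3c1 (8 of 17, median 12.8 CPM) than Nr3c2 (5 of 17). In the 6 WT RC-like cells of batch 4 Nr3c1 averaged 84.6 CPM and Nr3c2 1.72 CPM, so the order of the means did not hold there. Nr3c1, at chr18:39410545-39519421 on the minus strand, was held by 26 of 38 IMC-like cells, with a median of 101.02 CPM, and by 2 of 14 MC-like cells. Nr3c2 was held by 7 of 14 MC-like and by 11 of 38 IMC-like cells. Over all WT cells, 37 held Nr3c2, 61 held Nr3c1, 14 held both and 88 neither.

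Hsd11b2 RNA was found in few cells. Of all WT cells 2 had any count, 1 MC-like cell with 168.6 CPM and 1 Vmo1/Crhbp cell with 288.1 CPM. None of the 37 cells that held Nr3c2 held Hsd11b2, which by the same limit leaves a share of up to 8.11% with 10 or more counts of it. That limit is not one on cells that express the gene, since single-cell cDNA leaves out RNA at random. Hsd11b1, which encodes the enzyme that regenerates glucocorticoid, stayed at 4.04 CPM or less but for the mixed cells, which averaged 19.3 CPM. The chaperone genes of the receptors were present throughout: Hsp90ab1 averaged between 536 and 1209 CPM, Fkbp4 between 115.2 and 402.6 CPM and Ptges3 between 88.1 and 162.3 CPM over these clusters.

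Tsc22d3 was highest in IMC-like cells, at a mean of 101.99 CPM with a median of 3.18 and a range from 0 to 1279 CPM, and 18 of 38 cells held it. SC-like cells averaged 69.4 CPM, RC-like 21.3, MC-like 10.2 and Vmo1/Crhbp cells 9.38 CPM. IMC-like exceeded SC-like cells by 0.55 on the log2 scale, and the SD between batches was 3.33. Of the 44 WT cells that held Tsc22d3, 28 held a receptor gene, and of the 62 that held Sgk1, 36 did. By their means the 2 induced genes differed in the order of cell types, since Sgk1 was highest in RC-like cells and lowest in IMC-like cells, where Tsc22d3 was highest. Other genes known to be induced by corticosteroids were not set in either order. Klf9 was highest in IMC-like cells (404 CPM), Dusp1 in MC-like cells (362 CPM), Nfkbia in RC-like cells (194.4 CPM), and Per1 (365 CPM) and Zbtb16 (128.9 CPM) in Vmo1/Crhbp cells. The mixed cells, which are outside this order, averaged 441 CPM of Per1. Sgk1 and Tsc22d3 also respond to stress, and the summed level of 16 immediate early and heat shock genes had a WT median of 267.2 CPM in IMC-like, 793 CPM in SC-like and 404 CPM in RC-like cells. Its part in the levels of Sgk1 and Tsc22d3 was not tested.

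**Figure D4:**
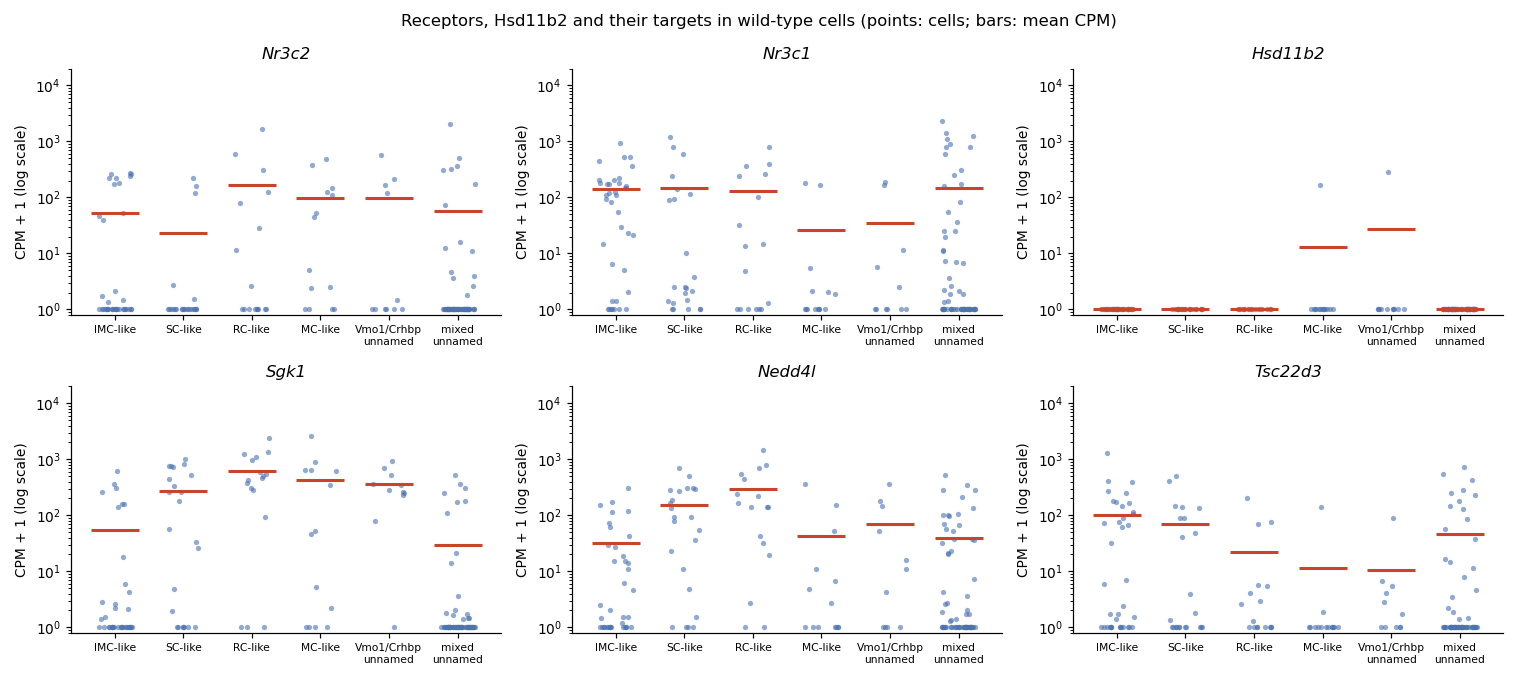
Levels of Nr3c2, Nr3c1, Hsd11b2, Sgk1, Nedd4l and Tsc22d3 in each WT cell by cluster, as CPM + 1 on a log axis. Each point is a cell and each bar the mean. Hsd11b2 is above 0 in 2 cells, Sgk1 has its highest mean in RC-like cells (628 CPM) and Tsc22d3 in IMC-like cells (101.99 CPM).

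The WNK kinases, which control Na+ and Cl- transporters and act on Sgk1, differed by cell type. Wnk1 averaged 440 CPM in RC-like and 15.6 CPM in MC-like cells, Wnk2 271.2 CPM in MC-like cells, and Wnk4 351 CPM in IMC-like and 347 CPM in RC-like cells. Stk39, a kinase downstream of them, averaged 513 CPM in MC-like cells, and Klhl3 stayed under 10 CPM. Of the acid-sensing channels, which are related to ENaC, Asic1 averaged 42.7 CPM in the mixed cells and 10.3 CPM in RC-like cells, and Asic2, Asic3, Asic4 and Asic5 were under 10 CPM.

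KO and WT cells were then compared within a cell type, with a gene taken as past the limit when its mean CPM differed at least 2-fold and reached 10 CPM in 1 of the genotypes. Ratios are of mean CPM with 1 CPM added, so they understate the change of genes at low levels. In IMC-like cells (26 KO and 38 WT) 5 of the 10 genes reached 10 CPM and 3 were past the limit, beside 30.5% of all 9444 genes. Nedd4l was higher in KO cells, and Nr3c2 and Tsc22d3 were lower. The median ratio over all genes was −0.12 on the log2 scale.

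Nedd4l ranged in KO IMC-like cells from 0 to 1513 CPM with a median of 28.8 and a mean of 144.4 CPM, and in WT IMC-like cells from 0 to 303.2 CPM with a median of 0.798 and a mean of 30.8 CPM. The ranges overlapped, and 18 of 26 KO and 15 of 38 WT cells held the gene. The log2 ratio was 2.19. Within batch 2 the means were 204.2 CPM in 15 KO and 9.12 CPM in 5 WT cells, but the medians were 5.51 and 13.3 CPM and 7 KO and 3 WT cells held the gene, so the mean came from few KO cells. Within batch 4 the means were 62.9 CPM in 11 KO and 36.9 CPM in 7 WT cells, a ratio of 0.75 that did not reach the limit, and the medians were 34.5 and 0.546 CPM. In batch 4 the 20 HET IMC-like cells averaged 18.9 CPM, below both. Within batch 2, 2 of 4 genes at 10 CPM or more were past the limit, beside 62.7% of all genes, whose median ratio was 0.27, and within batch 4, 4 of 5, beside 46.001%.

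Nr3c2 averaged 6.60 CPM in KO and 51.5 CPM in WT IMC-like cells, a log2 ratio of −2.79, with medians of 0 in both. Its mean was lower in KO cells within batch 2 (0.0849 against 48.5 CPM) and within batch 4 (15.5 against 32.1 CPM). Over all batches 4 of 26 KO against 11 of 38 WT cells held it. In batch 2 only 1 of 5 WT cells held it. In batch 4, however, 4 of 11 KO and 2 of 7 WT cells did, and the medians were 1.76 CPM in KO and 0 in WT cells. Tsc22d3 averaged 11.2 CPM in KO and 101.99 CPM in WT IMC-like cells, a log2 ratio of −3.07, and was held by 3 of 26 and 18 of 38 cells. Within batch 4 it averaged 13.003 CPM in KO, 24.6 CPM in HET and 105.2 CPM in WT cells. Within batch 2, however, KO cells averaged 9.95 and WT cells 7.65 CPM. Nr3c1 and Sgk1 were within 2-fold between KO and WT over all IMC-like cells, at 125.5 against 141.9 CPM and 56.1 against 53.4 CPM. Both were also within 2-fold in batch 2. Within batch 4 both were past the limit, with Nr3c1 lower in KO cells (92.8 against 202.7 CPM) and Sgk1 higher (61.2 against 23.4 CPM). Sgk1 was held there by 3 of 11 KO and 1 of 7 WT cells. The immediate early and heat shock genes had a median sum of 398 CPM in KO and 267.2 CPM in WT IMC-like cells, with Fos (4.34), Ier3 (3.31) and Ier2 (1.53) higher in KO cells on the log2 scale, and their part in the Tsc22d3 difference was not tested.

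HET and WT IMC-like cells were compared in batch 4, where 2 of 5 genes at 10 CPM or more were past the limit beside 43.6% of all 9246 genes. Tsc22d3 (−2.05) and Nr3c1 (−1.06, at 96.5 against 202.7 CPM) were lower in HET cells on the log2 scale. Between KO and HET IMC-like cells 1 of 5 was past the limit, Nedd4l at 1.69, beside 32.9% of 9207 genes.

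In RC-like cells (14 KO and 17 WT) 5 of the 9 genes at 10 CPM or more were past the limit, beside 49.966% of all 10147 genes. ENaC subunits were more often found in KO cells. At least 1 subunit was held by 8 of 14 KO cells (57.1%, interval 28.9 to 82.3%) from 6 sessions and by 3 of 17 WT cells (17.6%, interval 3.80 to 43.4%), and by none of the 6 HET cells. The intervals of KO and WT overlap. Median counts per cell were 1769605 in the KO, 994100 in the WT and 3123761 in the HET RC-like cells. The part of depth in these shares was not tested. Scnn1b averaged 103.3 CPM in KO cells, with a median of 0 and a highest value of 766 CPM, and 1.11 CPM in WT cells, whose highest value was 15.5 CPM (log2 ratio 5.63). Within batch 4 it averaged 24.7 CPM in 7 KO and 3.14 CPM in 6 WT cells, and within batch 2 it averaged 181.9 CPM in 7 KO cells and 0 in the 1 WT cell. Scnn1a averaged 41.9 against 12.2 CPM (1.70), and without batch 2 its ratio was −0.36. Scnn1g was 35.5 against 28.9 CPM and within 2-fold over all batches. Within batch 4 Scnn1g was past the limit and lower in KO cells (2.53 against 22.5 CPM), held by 1 of 7 KO and 1 of 6 WT cells. Within batch 2 it averaged 68.4 CPM in 7 KO cells and 0 in the 1 WT cell. The 8 KO cells with a subunit had at most 4.29 CPM of Vmo1, 8.90 CPM of Crhbp and 34.3 CPM of Anxa1. Slc26a7, which also marks the Vmo1/Crhbp cells, reached 210.05 CPM in them, with a median of 1.04 CPM. The sum of 7 spindle cell markers had a median of 1448 CPM and a highest value of 8196 CPM in these cells, against 1055 and 3539 CPM in the 6 KO cells without a subunit and at most 1739 CPM in WT RC-like cells, and its part in the subunit counts was not tested. Their median of Epyc was 8486 CPM against 9573 CPM in the 6 KO cells without a subunit.

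Nedd4l went the other way in RC-like than in IMC-like cells. It averaged 83.5 CPM in KO cells (range 0 to 343, median 55.9) and 298.5 CPM in WT cells (range 0 to 1473, median 142.6), a log2 ratio of −1.83. Within batch 4 it averaged 55.5 against 410 CPM and within batch 2 111.5 CPM against 241.3 CPM in the 1 WT cell, and the 6 HET cells averaged 73.3 CPM. Nr3c2 (49.5 against 163.4 CPM, −1.70) and Nr3c1 (42.05 against 130.2 CPM, −1.61) were lower over all RC-like cells. Nr3c2 was higher in KO cells within batch 4, at 39.5 against 1.72 CPM, and its WT mean came from batches 1 and 3. Nr3c1 was within 2-fold in batch 4 (−0.63), where its median was 38.3 CPM in KO and 21.9 CPM in WT cells, and its ratio was 4.95 within batch 2. Sgk1 was within 2-fold in KO and WT RC-like cells, at 591 and 628 CPM, and the HET cells averaged 1083 CPM. Within batch 4, 5 of 8 genes at 10 CPM or more were past the limit, beside 59.6% of all genes, and within batch 2, with 1 WT cell, 8 of 8, beside 91.4%. The median over all genes was 4.41 on the log2 scale in that batch.

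Genes induced by corticosteroids had lower means in the KO than in the WT RC-like cells. Of 9 such genes at 10 CPM or more, 7 were past the limit and lower and none was higher, beside 28.2% of all genes lower. They were Zbtb16 (−5.83), Per1 (−3.38), Mt1 (−3.30), Dusp1 (−2.98), Ddit4 (−2.78), Klf9 (−2.15) and Fkbp5 (−1.05 on the log2 scale). Several of these means rest on few of the 17 WT cells, since Zbtb16 and Fkbp5 were held by 2, Ddit4 by 3, Dusp1 by 4 and Mt1 by 5. The median over the list was −2.78 and that over all genes −0.10. Per1, a clock gene, averaged 15.1 CPM in KO and 167.2 CPM in WT cells, and Klf9, a transcription factor gene, 35.3 and 160.5 CPM. Within batch 4 the list had 7 lower and 1 higher of 9, beside 28.6% of all genes lower, with a median of −2.57 against 0.07 over all genes. Within batch 2, with 1 WT cell, 3 were higher and 3 lower of 6. In IMC-like cells 3 of 10 were lower (Zbtb16, Fkbp5 and Klf9) and Mt2 was higher, beside 30.5% of all genes past the limit. Within batch 4 only Mt2 and Per1 of 7 were past the limit in IMC-like cells, beside 46.001% of all genes. Klf9 was past it there within neither batch 2 nor batch 4. In SC-like cells none of 8 was lower and Ddit4, Dusp1 and Errfi1 were higher, beside 57.2%. Sgk1 and Tsc22d3 themselves were within 2-fold over all RC-like cells. Tsc22d3 averaged 13.9 CPM in KO, 21.3 CPM in WT and 157.6 CPM in the 6 HET cells. Within batch 4 Tsc22d3 was past the limit and lower in KO cells (21.9 against 45.6 CPM), held by 1 of 7 KO and 2 of 6 WT cells. The median sum of immediate early and heat shock genes was 299 CPM in KO and 404 CPM in WT RC-like cells.

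SC-like cells had 8 KO cells, all in batch 2 and from 2 sessions, against 23 WT cells, of which 2 were in that batch. Batch and genotype cannot be told apart here but for those 2 cells. Of 9 genes at 10 CPM or more, 3 were past the limit, beside 57.2% of all 9992 genes. Within batch 2 it was 7 of 9, beside 83.5%, and there the median over all genes was 3.17 on the log2 scale with 2 WT cells. Scnn1a ranged from 0 to 1816 CPM in KO cells with a median of 330 and a mean of 481 CPM, against a mean of 87.2 CPM in WT cells (log2 ratio 2.45). It was held by 5 of 8 KO and 10 of 23 WT cells, and the ranges overlapped. Sgk1 (119.1 against 268.8 CPM, −1.17) and Tsc22d3 (10.7 against 69.4 CPM, −2.59) were lower. Within batch 2 Sgk1 did not reach the limit (−0.51), and without batch 3 its ratio was 0.11, while Tsc22d3 was −4.44 within batch 2. Scnn1b, Scnn1g, Prss8, Nedd4l and both receptors were within 2-fold over all batches. Of these only Nedd4l stayed so within batch 2, where Scnn1b (−1.15) and Prss8 (−2.15) were lower and Scnn1g (4.13), Nr3c2 (4.31) and Nr3c1 (5.44) were higher, the last 3 with no WT cell that held them. A subunit was held by 7 of 8 KO cells and by 17 of 23 WT cells. The KO cells also carried fewer spindle cell marker counts: the sum of 7 markers ran from 5195 to 24180 CPM in KO and from 11301 to 120234 CPM in WT cells, with 1 marker at 0 in all KO cells, and the sum of 10 marginal cell markers had a median of 9267 against 4330 CPM. The part of these values in the Scnn1a difference was not tested.

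**Figure D5:**
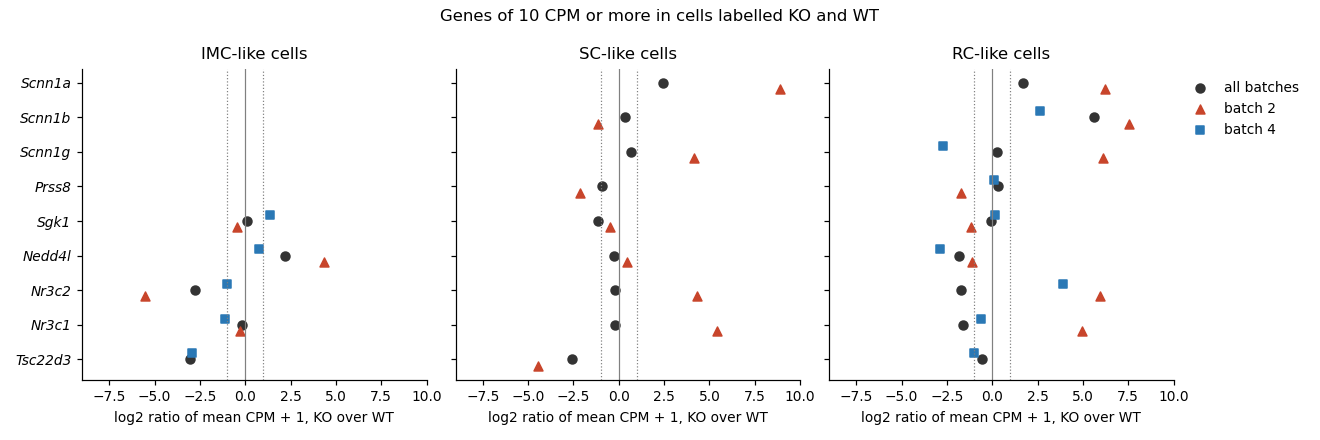
Log2 ratio of mean CPM with 1 CPM added, KO over WT, in IMC-like, SC-like and RC-like cells, for genes that averaged 10 CPM or more in either genotype. Circles are all batches, triangles batch 2 and squares batch 4, and the dotted lines mark 2-fold. Nedd4l is at 2.19 in IMC-like and −1.83 in RC-like cells, and the Nr3c2 points of RC-like cells lie on both sides of 0.

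Other pathway genes past the limit between KO and WT cells came in both directions, and their counts are to be read beside the 30.5% of all genes past the limit in IMC-like, 49.966% in RC-like and 57.2% in SC-like cells. Of the ENaC cleavage genes, Furin, Spint2 and Serpine2 were lower in KO IMC-like cells (3 of 3 at 10 CPM or more), but Furin was 1.49 higher on the log2 scale within batch 2. Tmprss3 was higher in KO RC-like cells (1130 against 382 CPM), where Furin, Tmprss2 and Serpine2 were lower, and lower in KO SC-like cells (71.2 against 410 CPM), where Spint1 and Spint2 were lower and Serpine2 was higher. Of 11 turnover genes, Rictor was higher in all 3 cell types and Mapkap1 lower in all 3, which were the 2 past the limit in IMC-like cells. Within batch 4, however, Rictor was lower in KO IMC-like cells (−1.59), and Mapkap1 was 0.88 higher within batch 2, short of the limit. Mapkap1 did not reach it either within batch 4 in RC-like (−0.10) or within batch 2 in SC-like cells (0.01). The other 4 in RC-like cells were Usp2 and Usp10, higher, and Sgk3 and Pdpk1, lower. The other 4 in SC-like cells were Pdpk1 and Mtor, higher, and Ywhae and Nedd4, lower. Rictor and Mapkap1 encode parts of the mTOR complex that activates Sgk1. Of the WNK list, Stk39, Wnk4 and Oxsr1 were lower and Cul3 higher in IMC-like cells. In RC-like cells Oxsr1 and Stk39 were higher and Wnk4 lower, and in SC-like cells Wnk4 was higher and Oxsr1 and Stk39 lower. Of the receptor partners, Hsp90aa1 was lower in IMC-like cells, Fkbp4 higher in RC-like cells, and in SC-like cells Ptges3 and Hsp90aa1 were higher and Ncoa1 lower. Within batch 2, however, Ncoa1 was past the limit and higher in KO SC-like cells, against 2 WT cells. Asic1 was lower in RC-like cells, where 1 WT cell held it. Of the immediate early and heat shock genes, 5 of 9 were past the limit in RC-like cells (Socs3, Btg2 and Junb higher, Jun and Jund lower) and 7 of 10 in SC-like cells, led by Fos (lower), Dnajb1 (higher), Zfp36 (lower), Egr1 (higher), Hspa1a (lower) and Jund (lower). Within batch 2, 6 of 8 were higher in KO SC-like cells and 1 was lower, beside 83.5% of all genes past the limit. Directions given in this paragraph without a batch are those over all batches.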

How the data were processed

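The authors picked single cells by micropipette and prepared Smart-Seq2 libraries without molecular identifiers. Per the labels and the study's methods, reads were assigned to the GRCm38 transcriptome (mm10) with Kallisto, whose version is not given in the sources used here. For each cell the authors deposited estimated counts and TPM values of 98492 transcripts, and a table of estimated counts per gene whose decimals they had dropped. Of its 298 columns, 17 match no sample and were not used. All 281 mapped cells were kept (172 WT, 40 HET and 69 KO, of 1848 to 7932729 counts), and no 2 profiles were identical. Likeness between genes used the 152 WT cells of 100000 counts or more. GENCODE M21 assigned transcripts to genes, except 1288 transcripts that held a median of 0.635% of counts.

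Counts were scaled to CPM over all genes. Cells were clustered with Seurat 5.3.0 in R 4.3.3 (2000 variable genes, 10 PCs, resolution 0.8), after 77 genes, those described and the pathway lists, had been left out. To name a cluster, 80% or more of its cells had to score highest for 1 cell type, with 3 or more markers detected, and 32 cells had close scores. Doublets were not called, since cells were picked singly. Batches are the run dates in the profile names, and sessions are cells of 1 batch, collection day and age. Statistics used Python 3.11.15 with scipy 1.17.1, numpy 2.4.6, and pandas 2.3.3. Plots used matplotlib 3.10.9. The code of the genotype comparison was run on simulated counts without batches or added dropout. That run does not give the error of the comparison in these data. A fold is past the limit at 2-fold, with a mean of at least 10 CPM in a genotype and a pseudocount of 1 CPM. Genes named were the 10 described, those of 7 pathway lists past the limit (at most 6 a list), and the 5 most like each gene where rho was at least 0.5. The genes and lists were chosen with earlier results of these data known. Alternatives changed the clustering, the cells, the summary, the scale, the filter, the limit and the batches.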

Additional observations from a re-analysis of the deposited data

Results flagged for a closer look

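Nedd4l, the gene of the ubiquitin ligase that removes ENaC from the membrane, differed between KO and WT cells in opposite directions in 2 cell types. Its log2 ratio was 2.19 in IMC-like cells and −1.83 in RC-like cells, 4.02 apart. The ratio of means had the same direction within batches 2 and 4 in both cell types, at 4.34 and 0.75 in IMC-like cells and at −1.11 and −2.86 in RC-like cells, of which batch 2 held 1 WT cell. In batch 2 the IMC-like medians went the other way, at 5.51 CPM in KO and 13.3 CPM in WT cells. The ranges of KO and WT cells overlapped in both cell types, and the difference between the cell types was not tested, since no mouse is named.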

How the results depend on the processing

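No paired analysis was possible because the labels give no number that genotypes share and no result comes from a test. For the 8 counts that answer a comparison, 20 of 129 values under alternatives differed by more than 1.5 times from the value reported. Of 849 log2 ratios for single genes, 755 counted as the same, 81 as moved and 13 as changed in sign. A change of sign was counted only where the reported ratio was at least 2-fold. Other ratios between cell types counted as moved when they shifted by at least the SD between batches. Other ratios between genotypes counted as moved when they crossed 2-fold. The number of genes past the limit between KO and WT IMC-like cells (3) was within 1.5 times under every alternative run, but the genes themselves changed. They were Nr3c2 and Nedd4l within batch 2, and Tsc22d3, Sgk1, Nr3c1 and Nr3c2 within batch 4. For SC-like cells (3) it was 7 within batch 2 and 5 at a limit of 1.5-fold. For RC-like cells (5) it was 3 with medians over cells, 8 within batch 2 and 1 at a limit of 4-fold. For HET against WT IMC-like cells (2) it was 4 with TPM, with summed counts or at 1.5-fold, and 1 with a pseudocount of 10 CPM or at 4-fold. For KO against HET (1) it was 3 with summed counts, 2 with medians, with the mean of log2 values or at 1.5-fold, and 0 at 4-fold. Of the ENaC subunits 2 were highest in SC-like cells, and 0 with the Vmo1/Crhbp cells counted in, a setting added after the data had been seen. WT cells with all 3 subunits (4) were 10 at 1 count, 2 without batch 4 and 1 without the Vmo1/Crhbp cells, the last also chosen after seeing the data, and such SC-like cells (1) were 3 with cell types from the marker score.

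Reported ratios under 2-fold that changed sign are not listed, such as Scnn1b between KO and WT SC-like cells (0.37, and −1.15 within batch 2). Log2 ratios of at least 2-fold that changed sign were the following, and the cause was not tested. Scnn1g in RC-like over SC-like cells (1.47) was −0.63 with 4 PCs, −0.72 at a resolution of 0.4, −0.35 with the marker score, −0.32 for cells of at least 100000 counts and −1.16 with summed counts. Between KO and WT, Tsc22d3 in IMC-like cells was 0.34 within batch 2 and Sgk1 in SC-like cells 0.11 without batch 3. In RC-like cells Scnn1a was −0.36 without batch 2 and −0.15 with summed counts, Nr3c2 was 1.49 with medians, 5.92 within batch 2 and 3.90 within batch 4, and Nr3c1 was 4.95 within batch 2. SC-like KO cells were all in batch 2 and HET cells all in batch 4, so settings that need other batches gave no value there. Few cells, shallow WT cells and dropout limit shares of cells at low levels, and a gene held by few cells has a mean set by them.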
